A study of Chlamydomonas reinhardtii with 2 samples.

Results

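Introns crossed by unspliced reads are stretches that some cDNA reads of a transcript skip and that at least 1 other read enters without a splice. They were collected in Chlamydomonas reinhardtii, a unicellular green alga, from a cDNA library sequenced by 454 pyrosequencing. An intron was a gap of at least 20 bases in the alignment of a read with a splice direction, with the same ends and strand in at least 2 reads. It was a member when at least 1 read had an unbroken aligned block with at least 10 bases on both sides of an intron boundary. Of 4625 introns, 240 were members, and the share of introns called in this way was 5.19% (interval 4.57 to 5.87). The members were thus chosen by their unspliced reads, so the numbers of these reads are given as a description, with no test. Shares carry exact Clopper-Pearson intervals at 95%, which express counting error alone, as amplified copies of a cDNA are not separate molecules.

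Introns are removed by the spliceosome, which recognises a donor site at the upstream end of the intron, usually beginning with GT, and an acceptor site at its downstream end, usually ending with AG. GC-AG borders are a minor variant of this class, and AT-AC borders are rarer. In intron retention the intron stays in the mature RNA, a frequent form of alternative splicing in land plants. When a transcript uses an alternative donor or acceptor, a part of the intron becomes exon, and reads of the longer exon cross a boundary of the shorter form. A poly(A) site inside an intron gives transcripts that end there. RNA that is still being processed, or genomic DNA in the RNA, gives unspliced reads as well.

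The cells were strain dw15.1, with the genotype cw15, nit2, mt+. The cw15 mutation affects the cell wall, nit2 is a mutation in the regulator of nitrate assimilation, and mt+ is the mating type. A TAP culture under continuous light was divided at 5000000 cells per mL. The N-replete cells stayed in 50 mL of medium with 10 mM NH4+ for 48 hours, and the N-deprived cells were kept in medium without nitrogen for the same time. Each condition had 1 biological replicate. The values are those of the N-replete library. N-deprived cells were not analysed here, and no difference between conditions was tested.

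The library held 239585 reads with an alignment. Of these, 223396 had a best place that no other place equalled, and they are the reads counted here. Their median identity with the genome was 99.3%. They showed 9531 introns in at least 1 read. Positions are 1-based, in the build of the deposited alignments, on sequences numbered 1 to 17 and a sequence called NA. Which build that is could not be read from the labels or the file headers, and no gene was assigned to any position. Reads without strand information crossed many introns, so fully unspliced RNA of either strand cannot be told apart at those places.

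A spliced read was counted at both boundaries of its intron, and an unspliced read at each boundary it covered. The intervals of crossing shares treat each crossing as separate, so they are narrower than the counting error of reads. The members had 2166 unspliced crossings from 1905 reads, and 20172 crossings in all, so 10.7% of their crossings were unspliced (interval 10.3 to 11.2). Over all 4625 introns the share was 1.89% (interval 1.81 to 1.97). The median member had 1 unspliced crossing. A single unspliced read crossed 159 members, 33 members had 2 such reads, 33 had 3 to 9, and 15 had 10 or more. The 9 members with the most unspliced reads held 1664 crossings, 76.8% of the total, although each of them was spliced in 2 or 3 reads. The other 231 members shared 502 crossings. Members lay in 188 of the 1911 loci with an intron, where a locus is a run of overlapping alignments. At 43 loci there were 2 or more members, with 4 at most.

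**Figure D1:**
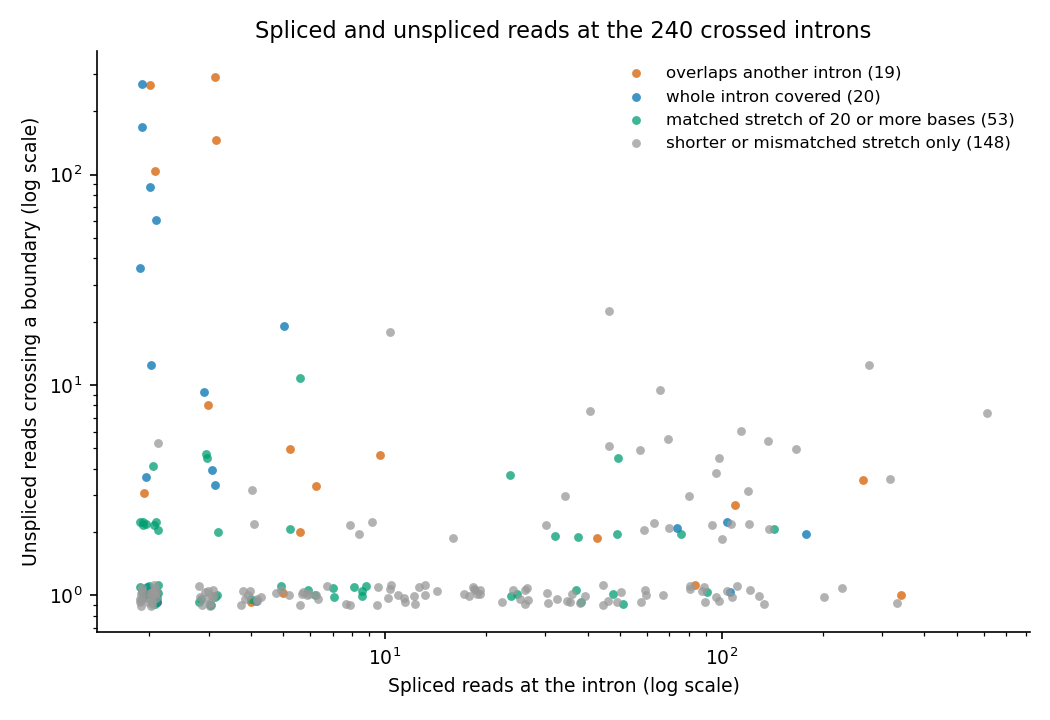
Each point is one of the 240 crossed introns, with its spliced reads on the x axis and its unspliced reads on the y axis (both log scales, points shifted slightly at random so that they do not cover each other). Colours mark the kind of crossing, and the 9 introns with 33 to 300 unspliced reads all stand at the left edge, with 2 or 3 spliced reads.

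At 17 members, 50% or more of the crossings were unspliced. The remaining members were spliced in most crossings, but not always in most reads, because a spliced read counts at both boundaries of its intron. An unspliced read counts only at the boundaries it covers, so the share of crossings can understate the share of reads. On sequence 16, the intron from 3882992 to 3883117 had 10 unspliced and 6 spliced reads, and 45.5% of its crossings were unspliced. Of the 1905 unspliced reads, 848 (44.5%, interval 42.3 to 46.8) were spliced at another intron of the same locus, 659 of them on the strand of the member and 189 on the opposite strand. In the whole library, 20.1% of the reads were spliced. Without the introns that overlap another, the share among unspliced reads was 20.2% (interval 17.8 to 22.8). Over all settings tried it ran from 2.03%, for reads over both boundaries, to 73.9%, for introns in 3 or more spliced reads. The library share also counts reads at loci without an intron, so the shares have unlike bases. Reads spliced on the member's strand elsewhere occurred at 121 members. For some of these reads the other intron overlapped the member, as at the pairs on sequences NA and 12 described below. The source of the reads was not tested.

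Members fell into 4 groups by what their unspliced reads did, which were defined after the data had been seen. The first held 19 members (7.92%) that overlapped another intron, with 874 crossings (40.4%). In the second were 20 members (8.33%) that at least 1 read covered from end to end, with 922 crossings (42.6%). A further 53 members (22.1%) had no such read but an intronic stretch of 20 or more bases with edits at 5% or fewer of its bases, called a matched stretch here, and these held 93 crossings (4.29%). The largest group, 148 members (61.7%), had shorter or mismatched stretches and 277 crossings (12.8%). An edit is a mismatched, inserted or missing base. Edits could not be read from the records at 175 of the 2166 crossings.

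Overlap with another intron was seen for 7.92% of the members and for 98 of the 4385 introns that were not crossed (2.23%). A read spliced at an overlapping intron can itself make the crossing that defines a member. The rule thus favours such introns, and the contrast is a description alone. The other intron lay on the same strand at 18 of the 19 members, and 6 shared a donor or an acceptor with it. At 9 of the 19 the member had fewer spliced reads than the intron it overlapped.

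The member with the most unspliced reads was a GC-AG intron of 251 bases on sequence NA, from 4071082 to 4071332 on the plus strand. It was spliced in 3 reads and crossed by 300 (98% of its crossings, interval 95.8 to 99.3). Most of these reads ran past its donor. Many reached the donor of an intron from 4071155 to 4071332, which was spliced in 259 reads. The unspliced depth was 296 at the first base of the longer intron and 205 at the last base before the second donor. The pair shared the acceptor, and their donors were 73 bases apart. Of the 300 crossings, 188 left by the second donor, and in 111 the alignment ended inside the longer intron. The intronic bases had 0.771 edits per 100 and the exonic bases of the same blocks 1.13. Reads with other places on the genome made up 247 of the 300, and the 3 spliced reads had a median identity of 94.1% against 99.1% for the unspliced ones.

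A pair of the same kind was found on sequence 12. The intron from 7700110 to 7700325 on the minus strand, 216 bases long, was spliced in 3 reads and crossed by 164. Of these, 160 left by the donor of the intron from 7700110 to 7700313, which had 161 spliced reads. The donors were 12 bases apart, a multiple of 3, and the acceptor was shared. The rarer form therefore removed 12 more bases than the common one. Other places on the genome were listed for 49 of the 164 reads.

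On sequence 10 the shared site was the donor. The member from 336007 to 336390 on the minus strand, 384 bases long, was spliced in 2 reads. Its acceptor was crossed by 113 reads. The intron from 336313 to 336390 used the same donor in 48 reads, and the acceptors were 306 bases apart. The unspliced reads covered up to 236 bases inside the longer intron, with 0.777 edits per 100 bases there against 1 in the exonic bases. The longer form skipped a part of the transcript that the common form kept.

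The smallest shift between introns with a shared site was on sequence 4. The intron from 34061 to 34137 on the plus strand was spliced in 350 reads and the intron from 34061 to 34139 in 2 reads. They shared the donor, and their acceptors were 2 bases apart. Both were members, and the pair was named after its values were seen.

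The longest member, with 1792 bases, ran from 2907324 to 2909115 on the plus strand of sequence 6. It was spliced in 2 reads and crossed by 255, and it enclosed 6 introns of the minus strand, each with 72 to 122 spliced reads. Of the crossing reads, 167 were spliced and had their splice direction on the minus strand, and none was spliced on the plus strand. As far as their direction is known, the crossing reads belong to the opposite strand. A minus-strand GC-AG intron of 702 bases on sequence 6, between 1809962 and 1810663, likewise enclosed others. It was spliced in 3 reads and overlapped 3 introns of its own strand with 4 to 10 spliced reads, and 7 of its 9 crossings left by such an intron.

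The 20 members covered from end to end by 246 reads were short. Their median length was 68.5 bases (interval 56 to 93), against 191 (interval 171 to 210) for all members, and they ranged from 33 to 184 bases. Of the 56 members of up to 100 bases, 15 were covered in whole. None of the 2536 introns over 200 bases was, in a library with a median read of 235 bases and a longest read of 354. An intron longer than the reads could not be seen whole. Whether read length accounts for the absence of shorter introns over 200 bases was not tested. The median number of spliced reads in this group was 2.

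At an AT-AC intron of 70 bases on sequence 11, from 1372972 to 1373041 on the plus strand, 264 reads were unspliced and 2 were spliced. The intron was covered whole by 62 reads. The unspliced reads had 254 distinct alignments and the spliced reads 1, so the spliced reads began and ended at the same bases. Edits were 1.01 per 100 bases in the intron and 1.39 in the exonic bases. No unspliced read there was spliced elsewhere.

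The whole intron was read most often at a GC-AG intron of 33 bases on sequence NA, from 9077962 to 9077994 on the plus strand. It was covered whole by 101 of its 155 unspliced reads. The 2 spliced reads again had 1 distinct alignment, against 139 among the unspliced reads. Edits were 0.858 per 100 intronic bases and 1.75 per 100 exonic bases.

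Other end-to-end members had fewer reads. On sequence 12, the minus-strand intron of 81 bases between 7648237 and 7648317 had 66 unspliced reads, 28 of them over the whole intron, and 2 spliced reads. Of the 66, 47 had other places on the genome and 15 were spliced on the opposite strand. On sequence 3, the AT-AC intron of 184 bases from 4474848 to 4475031 on the plus strand had 96 unspliced and 2 spliced reads, and 6 of the 96 were spliced on the opposite strand. At both of these introns the directed reads therefore went against the strand of the member.

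On sequence 7, a minus-strand intron of 41 bases between 2505078 and 2505118 had 33 unspliced reads, 25 of them over the whole intron, and 2 spliced reads. The unspliced reads had a median identity of 86.1%, against 96.6% for the spliced ones. A GT-AA intron of 66 bases on sequence 6, from 4184011 to 4184076 on the minus strand, had 13 unspliced reads, 6 of them whole, and 2 spliced reads. On that intron 6 unspliced reads were spliced elsewhere on the same strand.

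In 3 further introns that were unspliced in more than 50% of at least 10 crossings, the numbers of both kinds of read were small. The intron of 67 bases on sequence 11 from 1982669 to 1982735 had 3 spliced and 9 unspliced reads, 4 of them whole. The intron of 82 bases on sequence 13 from 46385 to 46466 had 3 spliced and 4 unspliced reads, 3 of them whole. The intron of 56 bases on sequence NA from 3276429 to 3276484 had 2 spliced and 4 unspliced reads, 2 of them whole. The share was 53.8% at the intron on sequence 13, with an interval from 25.1 to 80.8, so at this depth it could be a minor or the major form. An intron of 51 bases on sequence NA from 9784697 to 9784747 was just below, at 45.5%, with 3 spliced and 3 unspliced reads.

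**Figure D2:**
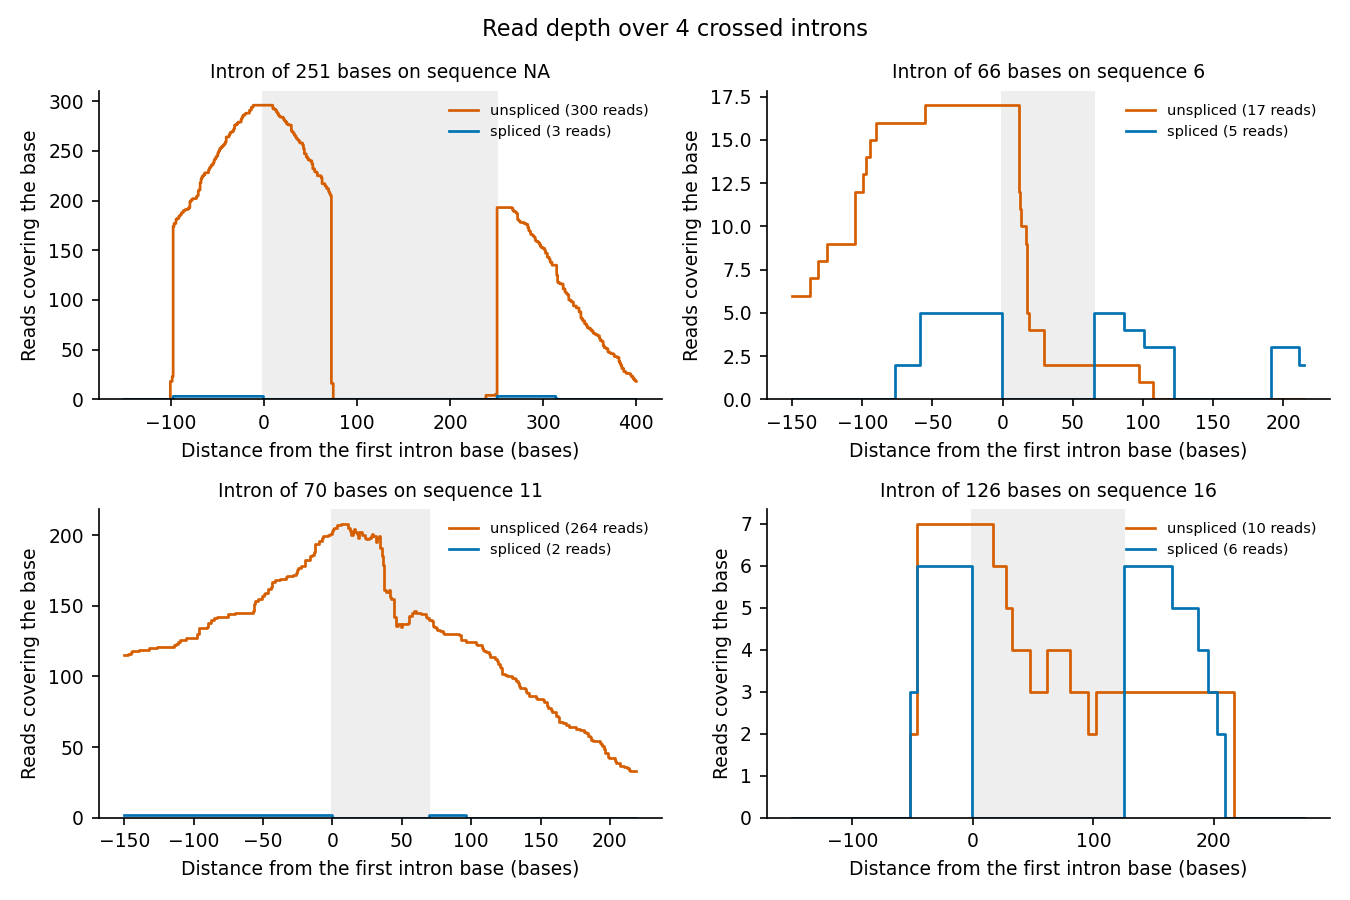
Reads covering each base (y axis) by distance from the first intron base (x axis, bases) at 4 crossed introns, with the intron shaded, unspliced reads in orange and spliced reads in blue. On NA (251 bases) the unspliced depth drops sharply at the alternative donor 73 bases in, and on 6 (66 bases) most unspliced reads stop soon after the donor. On 11 (70 bases) 62 of the 264 unspliced reads cover the whole intron. On 16 (126 bases) the unspliced reads cover the intron with falling depth.

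Reads that ended at a poly(A) tail inside an intron were looked for through the cDNA primer, whose bases precede the transcript in reads from that side and do not align. The primer is shown because such reads were recognised by 45 to 57 leading unaligned bases on the strand opposite to the intron. Its defined part has 48 bases, followed by the ambiguous letters VN, and the capitals mark the T-rich part, which primes on the poly(A) tail.
cDNA synthesis primer: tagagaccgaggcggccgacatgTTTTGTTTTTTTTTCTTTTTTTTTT

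There were 13 such reads at 2 members. On sequence 6, at the intron of 66 bases from 613988 to 614053 on the plus strand, 11 of the 17 unspliced reads ended in this way between 613999 and 614006, which is 12 to 19 bases past the donor. The intron was spliced in 5 reads, and 2 reads covered it whole. The ends did not fall on a single base, and their unaligned part was 48 to 53 bases long. The rule uses the unaligned bases, the direction and a crossing of the donor, not how well the intronic bases matched. With 12 to 19 intronic bases, none of these 11 reads could count as a matched stretch. Whether the unaligned bases are primer and tail was not tested. On sequence 6, at the intron of 275 bases from 6087999 to 6088273, 2 reads ended at 6088081, 83 bases past the donor, against 5 spliced reads. Both of these reads had a matched stretch. The genome sequence at these ends was not used here.

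Starts of cDNAs inside an intron, read from 34 to 44 leading unaligned bases on the transcript strand, were fewer per member. They came from 22 reads at 16 members, with 3 reads at most at 1 member. The rule for a start uses the unaligned bases, the direction and a crossing of the acceptor, not how well the intronic bases matched. At 2 of the 3 members with the deepest splicing in this set, such reads stopped aligning 10 to 12 bases into the intron, and none of them had a matched stretch. These were the intron on sequence 6 from 4726576 to 4727042, with 58 spliced reads, where the stretches of 10 bases had 40.0 edits per 100, and the intron on sequence 8 from 220992 to 222045, with 266 spliced reads, where the unspliced reads had a median identity of 92.1%. At the other, on sequence 3 from 6529730 to 6529815, with 97 spliced reads, the read had a matched stretch and its start lay 49 bases inside.

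The group with a matched stretch but no end-to-end read was spread thinly. Of its 53 members, 33 had 1 crossing, and the median number of spliced reads was 3. Among them the GC-AG intron of 126 bases on sequence 16, from 3882992 to 3883117 on the plus strand, had the most unspliced reads. It had 6 spliced and 10 unspliced reads (45.5%, interval 24.4 to 67.8). All 10 were spliced at other introns on the same strand, and 8 had a matched stretch, with up to 107 of the 126 bases covered. Edits were 0.775 per 100 in the intron and 0.988 in the exonic bases. A member with deeper splicing in this group was the intron of 152 bases on sequence 13 from 2386272 to 2386423, with 49 spliced and 5 unspliced reads, of which 4 had a matched stretch. It was named after its values were seen.

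The intronic part of the short crossings matched the genome poorly. Outside the members that overlap another intron, stretches of 10 to 14 intronic bases had 27.6 edits per 100 bases (interval 25.5 to 29.8), while the exonic bases of the same blocks had 1.14. Of the 204 such stretches that could be read, 25.5% had no edit. Longer stretches had fewer edits in the intron, with 17.9 per 100 at 15 to 19 bases, 7.9 at 20 to 29, 1.06 at 30 to 59 and 1.22 at 60 or more. The exonic bases stayed between 1.12 and 1.8 throughout. The last 12 aligned bases of reads that crossed no intron at the same loci had 2.86 edits per 100 (interval 2.83 to 2.9, 83464 ends).

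At introns with 50 or more spliced reads the contrast was wider. Stretches of 10 to 14 bases had 38 edits per 100 (interval 34 to 42.3), and none of the 78 that could be read was free of edits. In the 17 readable stretches of 20 bases or more there were 1.7 edits per 100 (interval 1.12 to 2.48), against 2.29 in the exonic bases. What the mismatched bases are was not tested, since the bases of the reads were not used here.

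**Figure D3:**
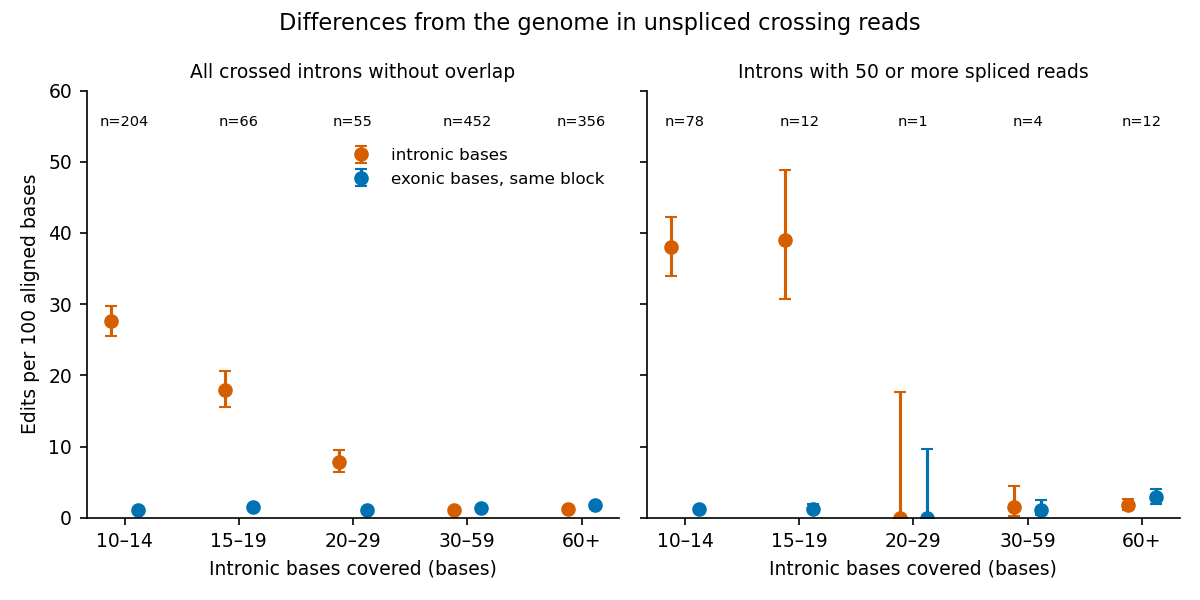
Edits per 100 aligned bases (y axis) by the number of intronic bases covered (x axis), for intronic bases in orange and exonic bases of the same aligned blocks in blue, with exact Poisson 95% intervals and n the crossings read. Intronic edits stand at 27.6 and 38 per 100 for 10 to 14 bases in the left and right panel and near the exonic values from 30 bases on.

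The longest intronic stretch was under 20 bases at 143 of the 240 members, 10 to 14 bases at 103 and exactly 10 bases at 33. Just outside the rule, 427 introns had stretches of 5 to 9 bases and none longer. Short stretches ended the alignment of their read in 333 crossings outside overlapping introns, and 184 of these reads had 0 to 4 unaligned bases left, 77 had 5 to 19 and 72 had 20 or more. A matched stretch of 20 or more bases was present at 78 members (32.5%, interval 26.6 to 38.8).

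The 56 members with 50 or more spliced reads had low shares of unspliced crossings, 6.57% at most, and 26 of them had 1 crossing. In 10 of them a matched stretch was seen and 4 were covered whole. The highest share was at the intron of 87 bases on sequence 2 from 9313737 to 9313823, with 64 spliced and 9 unspliced reads. Its stretches were 11 to 19 bases long, 8 of the 9 ended 11 bases inside, and they had 28.4 edits per 100 bases against 1.23 in the exon. On sequence 6, the intron from 4726576 to 4727042 had 58 spliced and 5 unspliced reads (4.13%), all with 10 intronic bases and 40.0 edits per 100. On sequence 10, the intron from 336457 to 336543 had 69 spliced and 5 unspliced reads (3.5%), with stretches of 12 to 14 bases and 33.9 edits per 100. On sequence 12, the intron from 3103282 to 3103463 had 117 spliced and 6 unspliced reads (2.5%), which all ended 14 bases inside. None of these 4 introns had a matched stretch.

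Among these deeply spliced members, 4 were read whole and were named after their values were seen. They were the introns on sequence 2 from 1208759 to 1208851 (93 bases, 188 spliced and 2 unspliced reads), on sequence 10 from 441051 to 441206 (156 bases, 99 and 2), on sequence 6 from 2983585 to 2983696 (112 bases, 75 and 2) and on sequence 12 from 5229571 to 5229687 (117 bases, 106 and 1). Each was covered whole by 1 read. The shares were 0.792%, 1.49%, 1.96% and 0.935% in that order. With 1 or 2 reads each, unspliced reads were rare at these introns at this depth, and their source was not tested. The shortest member, of 30 bases on sequence 17 from 937012 to 937041, was spliced in 96 reads whose median identity was 91.2%, and its 2 unspliced reads had 90.8%.

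Of the 39 introns over 1000 bases, 9 were members (23.1%, interval 11.1 to 39.3), against 231 of 4586 shorter ones (5.04%, interval 4.42 to 5.71). At 2 to 4 spliced reads, 2 introns over 1000 bases were members and 12 were not crossed. These numbers were 2 and 6 at 5 to 9 spliced reads, 4 and 10 at 10 to 49, and 1 and 2 at 50 or more. The share crossed differs by spliced reads, as given below, and whether this accounts for the contrast was not tested. The authors' alignment options set an intron limit of 1000 bases, per the file headers. Leaving out the 1792-base intron described above, the other 8 members over 1000 bases had 56 crossings. Of these, 42 had intronic stretches of 10 to 19 bases, and 45 were followed by 20 or more unaligned bases. On sequence 2, the intron of 1260 bases from 5429298 to 5430557 was spliced in 44 reads and crossed by 21. All 21 alignments ended at base 5429307, 10 bases inside the intron, and 19 of them left 43 to 118 bases of the read unaligned. On sequence 8, the intron of 1054 bases from 220992 to 222045 had 266 spliced and 14 unspliced reads, 9 of them with such an unaligned remainder of 27 to 98 bases. These reads had a median identity of 92.1%, against 99.4% for the spliced ones. A matched stretch was present at 1 of the 8. What the unaligned remainder is was not tested.

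The share of introns that were crossed was higher the more spliced reads an intron had. It was 3.19% of 2946 introns with 2 to 4 spliced reads, 4.29% of 815 with 5 to 9, 8.99% of 612 with 10 to 49 and 22.2% (interval 17.2 to 27.9) of 252 with 50 or more. The share of crossings that were unspliced ran the other way, from 10.7% to 0.736%, 0.461% and 0.225%. Both orders depend on the spliced reads that also define the classes. Without the 17 members that were unspliced in 50% or more of their crossings, the share was 0.698% in the lowest class and 0.372% over all introns. Introns with a matched stretch were 1.6%, 1.47%, 1.47% and 3.97% of the 4 classes, with intervals that overlapped throughout (1.17 to 2.12 in the first and 1.92 to 7.18 in the last).

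**Figure D4:**
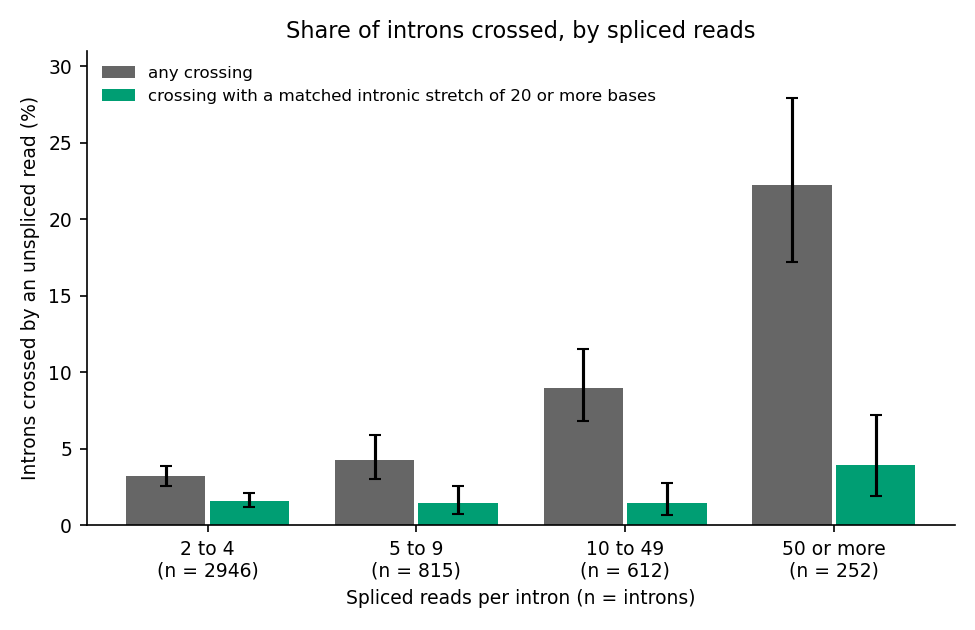
Percent of introns crossed by at least 1 unspliced read (y axis) by the number of spliced reads per intron (x axis), for any crossing in grey and for crossings with a matched stretch of 20 or more bases in green, with exact binomial 95% intervals. The grey bars go from 3.19% to 22.2%, the green ones from 1.6% to 3.97%.

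Length and borders are set side by side here for the members and the 4385 introns that were not crossed. These are counts of introns in 1 library, so no test was made. The median length was 191 bases (interval 171 to 210) for members and 214 (interval 210 to 218) for the others. Introns of up to 100 bases were 23.3% of the members (interval 18.1 to 29.2) and 12.1% of the others (interval 11.1 to 13.1). At 2 to 4 spliced reads these shares were 26.6% and 10.3%, at 5 to 9 they were 37.1% and 15.5%, and at 50 or more they were 21.4% and 15.3%. At 10 to 49 the order turned, with 10.9% and 14.9%.

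**Figure D5:**
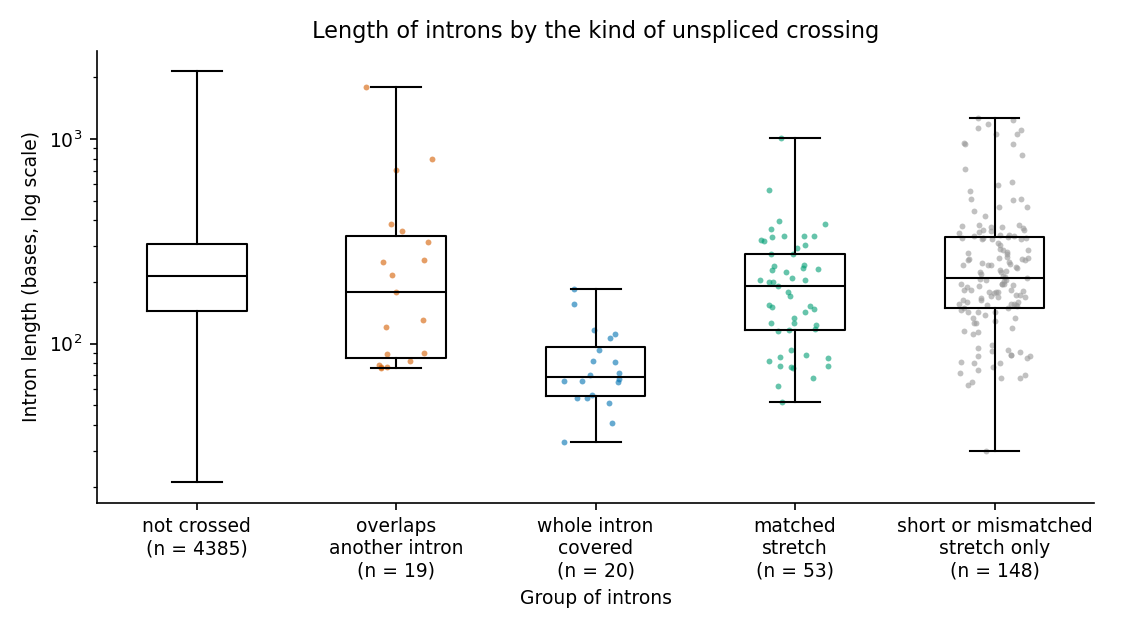
Intron length (y axis, bases, log scale) for the introns that were not crossed and the 4 groups of crossed introns (x axis). Boxes show the quartiles and the median, whiskers reach the extremes, and points are single introns, with the end-to-end group lowest at a median of 68.5 bases against 214 for the introns that were not crossed.

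GT-AG borders were found at 223 of the 240 members (92.9%, interval 88.9 to 95.8) and at 98.1% of the others (interval 97.7 to 98.5). GC-AG borders were found at 11 members (4.58%, interval 2.31 to 8.05) and at 70 others (1.6%, interval 1.25 to 2.01). The library had 3 introns with AT-AC borders in at least 2 reads, and 2 of them were members, both among the 9 with the most unspliced reads. Other borders occurred at 4 members and 12 others. All 56 members with 50 or more spliced reads had GT-AG borders, so the unusual borders lay at introns with fewer spliced reads. The GC-AG members ranged from 1 unspliced read, at 4 of the 11, to 300 on sequence NA.

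The length was a multiple of 3 at 99 members (41.2%, interval 35 to 47.8) and at 32.7% of the others (interval 31.3 to 34.1). An intron of such a length keeps the reading frame when it is retained in coding sequence, provided it holds no stop codon. By class of spliced reads the share among members was 45.7%, 22.9%, 49.1% and 37.5%, in order of rising depth, and among the others it was 35.2% at most. At 5 to 9 spliced reads the members had the lower share. A place was given by order along a locus with at least 3 introns on its main strand that overlapped no other. No transcript model was used, so a locus may hold part of a transcript or several transcripts. Of the 164 members placed in this way, 24.4% came first and 19.5% last, against 21.6% and 22% of the 2569 other introns so placed. Among the 37 placed members with a matched stretch, 16 came first in their locus (43.2%, interval 27.1 to 60.5). That group was set after the data had been seen, and its interval was wide.

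Unspliced reads crossed the donor boundary in 1259 crossings (58.1%) and the acceptor in 907. Without the 9 members with the most unspliced reads the donor share was 44.2% (interval 39.8 to 48.7). The donor alone was crossed at 84 members, the acceptor alone at 123 and both at 33.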

How the data were processed

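454 cDNA reads of 1 N-replete library were used. The deposited alignment records are in no expression unit. The authors made them with GMAP version 2007-09-28, with both intron limits set to 1000 bases, per the file headers. GSNAP is named in the submitters' processing notes, without a genome build. Reads without an alignment have no record, and 5 places at most are listed per read.

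A read's best place was the one where identity times aligned share was highest, and reads with another, non-overlapping place within 0.1 percentage points were left out. Intron and crossing rules are given with the results. Medians carry 95% order-statistic intervals and edit rates exact Poisson intervals. The members and lists were chosen with earlier results of these data known. Named introns were the 10 with the most unspliced reads, those with at least 10 crossings and 50% or more unspliced, the 10 with the most end-to-end reads, the 5 with the most reads spliced elsewhere, the 5 with the highest share among those with at least 50 spliced reads, and the longest and shortest. Exceptions are marked. The counting was tested on simulated alignments and recovered every simulated intron, crossing and tied read. These alignments held no edits, unaligned ends or overlapping introns. Mismatched stretches and the rules for cDNA ends were therefore not tested by them. The tools were Python 3.11.15 with scipy 1.17.1, numpy 2.4.6 and, for plots, matplotlib 3.10.9.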

Additional observations from a re-analysis of the deposited data

Results flagged for a closer look

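Reads with equally good places were left out of all counts above. At the first of their best places, 28 of these 16189 tied reads crossed an intron boundary unspliced. That was a smaller share than the 1905 of 223396 reads without a tie, from which the introns themselves were called. The count was above the 3 reads that a count of 0 allows, but no count of 0 was predicted. The 28 reads crossed 4 introns, of which 3 were members. At the intron of 81 bases on sequence 12 from 7648237 to 7648317 lay 24 of the 28. It had 66 unspliced and 2 spliced reads without a tie. They drew attention because they lie outside the reads that the counts rest on.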

How the results depend on the processing

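With 1 library there was no replicate to leave out, and no paired analysis was possible because a single library was analysed. Other settings changed 70 values beyond the interval or, for counts, by over 1.5 times, and 50 not. The values concerned were the introns crossed (240), the unspliced share over all introns (1.89%) and over crossed introns (10.7%), the introns unspliced in 50% or more of crossings (17), the introns read whole (20), the median length of all crossed introns (191 bases), their GT-AG share (92.9%) and the share of unspliced reads spliced elsewhere (44.5%). The cause was not tested, apart from what each setting itself removes.

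With 5 bases on each side, 667 introns were crossed, 27 of them in 50% or more, with shares of 3.21%, 7.03%, 96.1% (GT-AG) and 52.9% (spliced elsewhere). With 20 bases these were 95 introns, 1.34%, 24.6%, 88.4% and 37.5%, with a median of 155 bases. Introns in 1 or more spliced reads gave 393 crossed, 122 mostly unspliced and 58 whole, with 7.78%, 36%, 77.9% and 53.9%. Introns in 3 or more gave 6 mostly unspliced and 9 whole, with 0.82%, 4.69% and 73.9% spliced elsewhere. Introns in 10 or more gave 111 crossed, 0 mostly unspliced and 4 whole, with 0.293%, 1.47%, 96.4% and 49.6%.

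In the other settings the shares are again those over all introns, over crossed introns and, last, spliced elsewhere. Identity of at least 95% gave 1.5%, 9.7% and 36%. With an aligned share of at least 90% in addition, 127 introns were crossed, 5 mostly, 10 whole, with 0.461%, 4.97% and 34.1%. Reads with exactly 1 alignment gave 1.56%, 9.21% and 33.7%, duplicates counted once 1.33%, 8.17% and 58.6%, and a minimum gap of 50 bases 1.62%, 9.41% and 49.2%. Without overlapping introns they were 1.24%, 7.39% and 20.2%. Reads over both boundaries left 20 introns, 9 mostly unspliced, with a median of 68.5 bases, 75% GT-AG and 0.436%, 32.6% and 2.03%.

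A pair of settings was chosen after seeing the data. A matched stretch left 78 introns with a median of 146 bases, 87.2% GT-AG and 1.25%, 29% and 38.9%. Without the 17 mostly unspliced introns, 0 such and 10 whole introns were left, with 0.372%, 2.29% and 48.4%. Single unspliced reads decide most memberships, and 153 of the 240 members rest on 1 crossing. Of these 153, 26 had 50 or more spliced reads. The 2946 introns with 2 to 4 spliced reads held 94 members.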

Other observations

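The share of introns that were crossed ranged over the sequences from 2.25% on sequence 5 (2 of 89 introns, interval 0.273 to 7.88) to 11.2% on sequence 15 (10 of 89, interval 5.52 to 19.7), with overlapping intervals. Of the unspliced reads, 14 crossed 2 or more members. On sequence 17, the neighbouring introns from 1194079 to 1194319 and from 1194375 to 1194710 on the minus strand each had 4 unspliced reads, against 2 and 3 spliced reads, and were chosen after their values were seen. Stretches reached 179 bases in the first and 169 in the second, and none of these reads was spliced on the strand of the introns.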
